A study of Mus musculus with 2 samples.

Results

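Mural nuclei were 98 of the 4481 nuclei of this library, selected on the RNA of 5 genes of vessel wall cells. Each nucleus had at least 500 non-mitochondrial UMIs (counted RNA molecules) and at least 1000 counts in open chromatin peaks, with no limit on mitochondrial RNA. A nucleus was chosen if Myh11, Acta2, Rgs5, Tagln and Notch3 together made up at least 0.3% of its non-mitochondrial UMIs, with at least 4 UMIs from at least 2 of these genes. The 98 nuclei were 2.19% of the 4481 (95% Clopper-Pearson interval 1.78 to 2.66%), and the other 4383 nuclei were the main comparison. All intervals given here cover counting error only. They take each count as independent, which was not tested for peak counts, and dependence would make them too narrow.

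The study followed the skeletal lineage of young bone marrow in Prrx1-cre; R26R(tdTomato/+) mice, in which the Prrx1 limb enhancer drives Cre and leaves tdTomato in limb mesenchyme and its descendants. Cells were freed enzymatically from femurs at postnatal day 21, after the distal growth plate ends had been taken off, and tdTomato+ cells were sorted by FACS. About 15000 nuclei, pooled from both sexes of a litter, went into 1 10x Multiome reaction, which reads RNA and open chromatin (ATAC) from the same nucleus. The result was 1 RNA library and 1 ATAC library with shared barcodes, so no test between animals was possible and none is given. Nuclei of 1 library are not replicates of animals, and neither the position of a nucleus in the marrow nor its contact with a vessel was measured.

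Mural cells are the smooth muscle cells of arteries and arterioles and the pericytes of capillaries. Smooth muscle cells contract through actin and myosin and set the width of the vessel. Pericytes share the basement membrane of the endothelium, receive PDGF and Notch signals from it, and in marrow lie beside the reticular stroma that supports blood stem cells.

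The 98 mural nuclei held 250208 non-mitochondrial UMIs and 3068973 peak counts. A nucleus had 570 to 14210 UMIs (median 1789) and 1036 to 106271 peak counts (median 28878), and the other nuclei had medians of 1696 UMIs and 34095 peak counts. Mitochondrial RNA made up 0.195 to 48.1% of a mural nucleus' UMIs (median 18.5%), 54 of the 98 nuclei had at most 20% and 22 had at most 10%, and the median of the other nuclei was 16.4%. Free RNA, read from 62739 barcodes with few UMIs and few peak counts, would account for 8.89% of the UMIs of a mural nucleus if each nucleus held the median of such a barcode. For comparison, nuclei were also gathered by rules of the same form as 585 reticular nuclei (Cxcl12, Lepr, Ebf3, Kitl and Adipoq), 419 osteoblast nuclei and 160 blood nuclei. Of the mural nuclei, 2 also met the reticular rule, 2 the osteoblast rule and 0 the blood rule. UMIs of Xist and of a Y-linked gene occurred together in 6 mural nuclei (6.12%, interval 2.28 to 12.9%) and in 3.54% of the others, and the highest Scrublet doublet scores took in 3.06% of mural nuclei and 3.61% of the others.

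Rgs5, a regulator of G protein signalling that marks pericytes, gave 1296 UMIs in the mural nuclei, with 0 to 141 in a nucleus (median 7.5), and was seen in 88 of the 98. Notch3, the Notch receptor of mural cells, gave 404 UMIs, with 0 to 30 in a nucleus (median 3), and was seen in 91. These 2 genes were thus present in nearly every mural nucleus. Myh11, the smooth muscle myosin heavy chain, gave 279 UMIs, with 0 to 37 in a nucleus (median 1), and was seen in 55. Acta2, smooth muscle actin, gave 276 UMIs with 0 to 46 in a nucleus and was seen in 46, and Tagln, an actin-binding protein of smooth muscle, gave 132 with 0 to 18 and was seen in 32. The 3 contractile genes were therefore uneven between nuclei: the median nucleus had 0 UMIs of Acta2 and 0 of Tagln.

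As these genes chose the nuclei, their levels are a description. Summed over nuclei, Myh11 stood at 1115 CPM (counts per 1000000 non-mitochondrial UMIs) in mural nuclei, 6.44 in all other nuclei and 11.6 in reticular nuclei. Rgs5 stood at 5179.7, 56.0 and 75.7 CPM, and Acta2 at 1103, 14.3 and 9.27 CPM. Tagln stood at 528, 6.97 and 6.18 CPM, and Notch3 at 1615, 56.4 and 264 CPM. Of the reticular nuclei, 32.3% had a Notch3 UMI and 10.4% an Rgs5 UMI, beside 10.7 and 11.2% of all other nuclei. With every nucleus thinned to 500 UMIs, Rgs5 was seen in 76.5% of mural nuclei, 3.67% of the others, 4.10% of reticular and 0.625% of blood nuclei, and Notch3 in 11.6% of reticular nuclei. In mural, other and blood nuclei Notch3 was seen in 61.2, 3.45 and 0%, Myh11 in 27.6, 0.319 and 0%, Acta2 in 22.4, 0.662 and 1.25%, and Tagln in 15.3, 0.274 and 0%. The 5 genes summed to 58.7 CPM in blood nuclei and 227 CPM in free RNA.

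Rgs5 and Notch3 were found together in 83 nuclei, Myh11 and Notch3 in 49, Myh11 and Acta2 in 37, and Acta2 and Tagln in 26. A contractile gene and Rgs5 or Notch3 were found together in 64 nuclei, 32 nuclei had Rgs5 or Notch3 UMIs only, and 2 had contractile UMIs only. All 5 genes were seen in 20 nuclei with a median of 3918 UMIs and exactly 2 of them in 39 nuclei with a median of 1377 UMIs, so the number of genes seen moved with depth. The 5 genes made up 0.311 to 3.36% of a member's UMIs (median 0.748%). Near the threshold, 5 members lay under 0.35%, and 3 nuclei with enough UMIs and genes lay just outside at 0.25 to 0.294%. A further 23 nuclei reached 0.3% without the required UMIs or genes, and 3348 of the other nuclei (76.4%) had no UMI of the 5 genes.

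**Figure D1:**
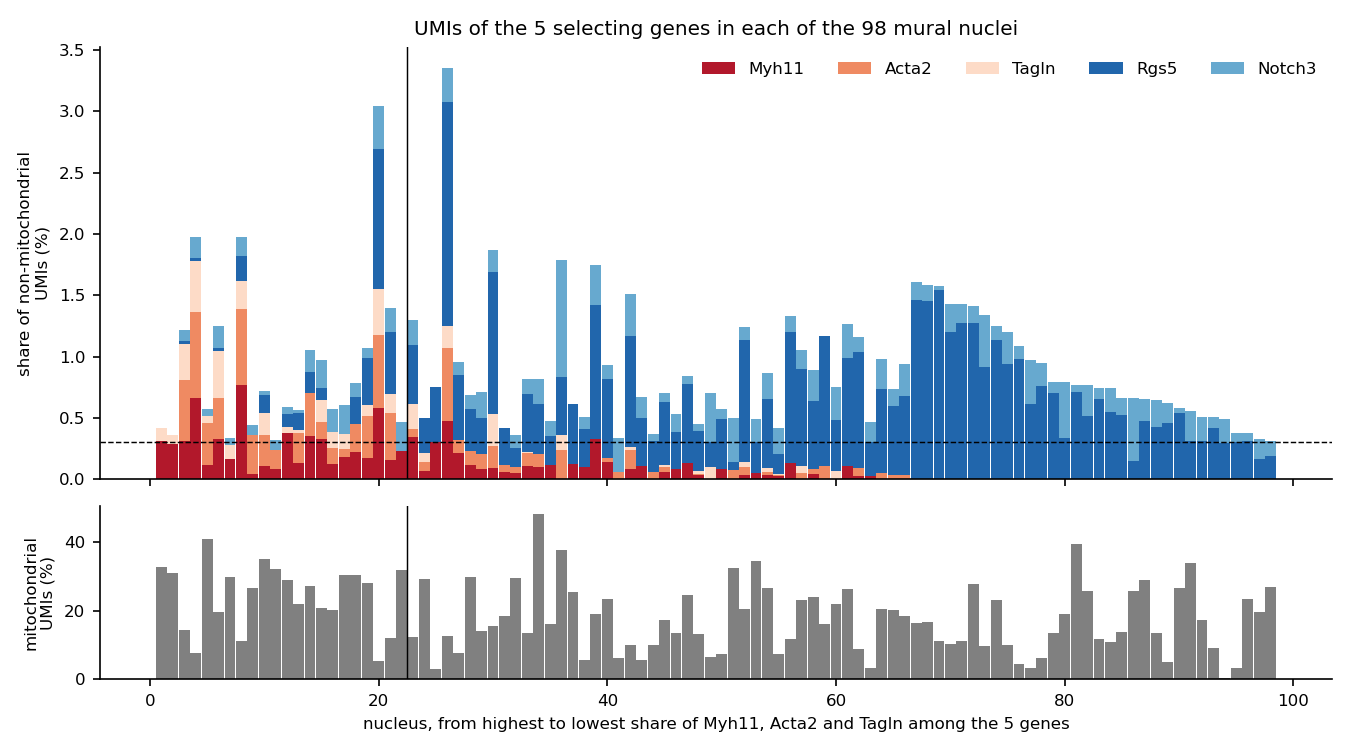
Share of non-mitochondrial UMIs from each of the 5 selecting genes (upper panel, %, stacked bars, 0.3% dashed) and mitochondrial share of UMIs (lower panel, %) in each of the 98 mural nuclei, ordered by the share of Myh11, Acta2 and Tagln among the 5 genes. The 22 nuclei left of the line took at least 50% of these UMIs from the contractile genes, and blue Rgs5 and Notch3 make up most of the bars on the right.

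Away from the selecting genes, the mural nuclei stood apart in many genes. Genes were compared where they had at least 10 UMIs in mural nuclei, or at least 10 expected there at the rate of the other nuclei, and those that differed by at least 2-fold are named higher or lower, with 0.5 counts added on each side of the ratio. Of 4460 genes compared, 801 (18.0%) were at least 2-fold higher and 394 (8.83%) at least 2-fold lower in mural than in all other nuclei, with a median log2 ratio of 0.25. Through their UMIs in mural nuclei alone, 1051 of the 4460 passed the minimum, so the counts of higher genes given below include genes that could not have come out lower. Against reticular nuclei, 603 of 4642 genes (13%) were higher and 669 (14.4%) lower. The median mitochondrial share was 18.5% in mural and 8.18% in reticular nuclei, and its part in the comparisons with reticular nuclei was not tested.

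The contractile machinery was richer in mural nuclei. The 28 genes of this list, which leave out the selecting genes, summed to 8281 CPM in mural nuclei (7928 to 8646), 2315 in all others and 3941 in reticular nuclei, and 91 of the 98 nuclei held at least 3 of their UMIs. Of the 21 that passed the minimum, 7 of them through the mural nuclei alone, 17 were higher than in all other nuclei and 0 lower, with a median log2 ratio of 1.87. Dmd (dystrophin, the link from the cytoskeleton to the matrix) had 160 UMIs and stood at 639.5 CPM against 9.51, a log2 ratio of 6.07 (5.73 to 6.42). Myl9, a regulatory light chain of myosin, stood at 296 against 8.92 CPM (log2 5.06), and Tpm2, a tropomyosin, at 292 against 12.6 CPM (log2 4.54). The actin nucleator Lmod1 had a log2 ratio of 5.27 from 10 UMIs, the actin-binding protein Synpo2 of 4.55 from 26, and Mylk, the kinase that switches on smooth muscle myosin, of 2.95 from 178. Smtn, with 10 UMIs at 40.0 against 51.4 CPM, and Sgcd, with 41 UMIs at 164 against 214 CPM, were not among the higher genes. Cnn1, the calponin of smooth muscle, had only 1 UMI and Des 5, too few for a ratio to be read.

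Calcium stores and channels that trigger contraction were sparser but held some of the largest ratios. Casq2, which stores calcium in the sarcoplasmic reticulum, had 16 UMIs in 11 mural nuclei at 64.0 against 0.2997 CPM, a log2 ratio of 7.61 (6.11 to 9.78), and none in reticular nuclei. Ryr2, a calcium release channel, had 21 UMIs at 83.9 against 1.05 CPM (log2 6.31). The calcium channel subunits Cacnb2 and Cacna1c stood at 644 against 36.0 CPM (log2 4.16) and at 524 against 71.0 CPM (log2 2.89), and the cation channel Trpc6 at 292 against 38.2 CPM (log2 2.94). Kcnma1, the pore of the large-conductance potassium channel, went the other way, at 51.96 CPM in mural nuclei and 553 in all others (log2 -3.36), while reticular nuclei had 84.95 CPM. Of 21 genes in this list, 4 had no UMI in mural nuclei, 13 passed the minimum (5 through mural nuclei alone), 9 were higher and 1 lower.

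Genes of nitric oxide and cyclic nucleotide signalling, which governs the relaxation of smooth muscle, were higher as a group. The list also held phosphodiesterases, which break down cyclic nucleotides, and the kinase Prkca. The 13 genes summed to 5408 CPM in mural nuclei, 1238 in all others and 1951 in reticular nuclei. Prkg1 gave 748 of their 1353 UMIs in mural nuclei. Of 12 that passed the minimum, 7 through mural nuclei alone, 10 were higher and 0 lower, with a median log2 ratio of 2.73. The guanylate cyclase subunits that sense nitric oxide were all higher: Gucy1a2 stood at 308 against 6.52 CPM (log2 5.56), Gucy1a1 at 196 against 19.4 CPM (log2 3.35) and Gucy1b1 at 83.9 against 8.32 CPM (log2 3.36). The cGMP kinase Prkg1 had 748 UMIs in 88 nuclei at 2989.5 against 696 CPM (log2 2.10), and its target Mrvi1, which damps calcium release, 39 UMIs at 156 against 2.997 CPM (log2 5.70). Pde3a, a phosphodiesterase, had 191 UMIs at 763 against 31.2 CPM (log2 4.62). Pde4d and Prkca, at log2 ratios of 0.78 and 0.15, lay within 2-fold.

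Receptors for vasoactive signals were few in UMIs. Of 23 genes, 9 had none in mural nuclei, 10 passed the minimum (6 through mural nuclei alone), 9 were higher and 1 lower, with a median log2 ratio of 2.77. The endothelin receptor Ednra had 76 UMIs in 38 nuclei at 304 against 18.1 CPM (log2 4.07). Rgs4, a relative of Rgs5 that is also in the pericyte list, stood at 232 against 4.35 CPM (log2 5.74). The ATP-gated channel P2rx1 (12 UMIs, log2 6.68), the thrombin receptor F2r (14 UMIs, log2 4.22) and the angiotensin receptor Agtr1a (10 UMIs in 10 nuclei, log2 3.01) were higher from few molecules. Pth1r, the parathyroid hormone receptor of bone cells, was lower, at 172 against 391 CPM (log2 -1.17). For genes with 0 UMIs, such as Ednrb, Npr1 and Ptgfr, a level of up to 12.0 CPM remained possible at this depth.

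Pericyte genes that the rule did not use were higher in mural nuclei. The 17 genes summed to 2974 CPM (2764 to 3195) in mural nuclei, 438 in all others, 1063 in reticular and 72.7 in blood nuclei, and 77 of the 98 nuclei held at least 3 of their UMIs. The 11 genes that passed the minimum were all higher than in all other nuclei, with a median log2 ratio of 3.56, but 8 of them had passed through mural nuclei alone. Mcam (CD146) had 93 UMIs in 42 nuclei at 372 against 6.89 CPM (log2 5.75, interval 5.32 to 6.19). Abcc9, the regulatory subunit of the vascular ATP-sensitive potassium channel, had 122 UMIs in 41 nuclei at 488 against 41.4 CPM (log2 3.56). Cspg4 (NG2) stood at 488 against 151 CPM (log2 1.70) and at 36.3 CPM in reticular nuclei. Gja4, a connexin of vessel walls, had 10 UMIs in 10 nuclei (log2 6.04), Art3 had 22 (log2 5.80), and Kcnj8, the pore partner of Abcc9, only 4. Pdgfrb, the receptor through which endothelium recruits pericytes, stood at 799 CPM in mural nuclei, 166 in all others and 755 in reticular nuclei, so mural and reticular nuclei differed in it by a log2 ratio of 0.09.

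In the Notch pathway, where ligands on endothelium engage Notch3 on mural cells and RBPJ carries the signal to DNA, 5 genes were higher and 1 lower of the 10 that passed the minimum, 5 of which passed through mural nuclei alone. Nrarp, a target gene that limits the pathway, had 25 UMIs in 16 nuclei at 99.9 against 2.55 CPM (log2 5.30). The target genes Hey2 (10 UMIs, log2 4.06) and Heyl (22 UMIs, log2 2.87) were higher, while Hes1, at 152 against 108 CPM (log2 0.51), lay within 2-fold. The ligand Jag1 had 83 UMIs in 44 nuclei at 332 against 37.2 CPM (log2 3.17), and Notch1 stood at 128 against 31.8 CPM (log2 2.03). Rbpj itself was lower, with 9 UMIs at 36.0 CPM against 87.7 in all others and 238 in reticular nuclei (log2 -1.21 and -2.65). Against reticular nuclei, 4 of 10 genes that passed the minimum were higher and 1 lower, and the list summed to 1507 against 1220 CPM (log2 0.30). There, Nrarp (log2 4.87), Hey2 (log2 3.59) and Jag1 (log2 1.65) were higher, while Heyl (log2 0.99) lay within 2-fold.

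Among 34 transcription factors of mural and smooth muscle cells, 27 passed the minimum, 13 through mural nuclei alone, and 17 were higher and 0 lower than in all other nuclei (median log2 ratio 1.45). Myocd, the coactivator that turns on smooth muscle genes with SRF, had 39 UMIs in 16 nuclei at 156 against 3.37 CPM (log2 5.53), and 1.54 CPM in reticular nuclei. The nuclear receptors Nr2f1 and Nr2f2 stood at 99.9 against 3.60 CPM (log2 4.81) and 136 against 7.34 CPM (log2 4.22). Tbx3 (20 UMIs, log2 4.13), Foxs1 (22 UMIs, log2 3.45) and Tbx18 (13 UMIs, log2 2.95), factors known from pericytes and vessel walls, were higher too. Ebf1 stood at 2242 CPM in mural nuclei, 663 in all others and 2272 in reticular nuclei, thus alike in both perivascular classes, and Srf had 2 UMIs.

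Mural nuclei were rich in genes of the basement membrane that they share with endothelium. The 31 genes of the membrane and its receptors summed to 10056 CPM in mural nuclei, 2336 in all others and 5219.6 in reticular nuclei. Of 23 that passed the minimum, 8 through mural nuclei alone, 16 were higher and 0 lower than in all others (median log2 ratio 1.71), and against reticular nuclei 11 were higher and 2 lower. The collagen IV chains Col4a1 and Col4a2 had 675 UMIs in 88 nuclei and 392 in 76, with log2 ratios of 4.10 and 4.16. Col18a1, the collagen that releases endostatin, stood at 663 against 10.0 CPM (log2 6.05), the laminin chain Lama5 at 212 against 3.97 CPM (log2 5.74), and the laminin receptor Itga7 at 192 against 6.37 CPM (log2 4.92). Eln (elastin, of the arterial wall) had 135 UMIs at 539.6 against 19.0 CPM (log2 4.83), of which 31.9% came from 1 nucleus.

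Growth factors showed a mixed picture. Of 19 PDGF, TGF-beta and angiopoietin genes that passed the minimum, 4 through mural nuclei alone, 7 were higher and 5 lower than in all other nuclei. Of 20 against reticular nuclei 5 were higher and 9 lower. Il6, a cytokine, had 30 UMIs in 12 nuclei at 119.9 against 5.69 CPM (log2 4.41). The Tie2 ligand Angpt2 had 24 UMIs in 12 nuclei (log2 3.44), 37.5% of them in 1 nucleus. Pdgfb, the ligand of Pdgfrb, had 13 UMIs in 10 nuclei at 51.96 against 11.3 CPM (log2 2.25), 30.8% of them in 1 nucleus. Pdgfra (7 UMIs, log2 -1.58), Pdgfd (11 UMIs, log2 -1.90) and the lymphatic growth factor Vegfc (6 UMIs, log2 -1.35) were lower than in all others. Of 16 genes for guidance and adhesion that passed the minimum, 4 through mural nuclei alone, 4 were higher and 6 lower. Cdh6 (18 UMIs, log2 3.60) and Astn2 (20 UMIs, log2 3.56) were higher, and Pcdh7 (6 UMIs, log2 -3.48) and Robo2 (6 UMIs, log2 -3.40) lower.

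Niche factors, the signals of marrow stroma to blood stem cells, were a list of 15 genes, of which 5 (Cxcl12, Kitl, Lepr, Ebf3 and Adipoq) had chosen the reticular nuclei. The other 10 genes summed to 2006 CPM in mural nuclei, 3188 in all others and 4301 in reticular nuclei. Against reticular nuclei 7 of these 10 were lower, 0 higher and 3 within 2-fold, but 4 of the 10 passed the minimum through the reticular nuclei alone. Cxcl12, the chemokine that holds blood stem cells in marrow, stood at 124 CPM in mural, 344 in all other and 2310.5 in reticular nuclei. Kitl, the stem cell factor, stood at 332, 361 and 2517 CPM, and the leptin receptor Lepr at 87.9, 209 and 1400.1 CPM. The values of these 3 genes in reticular nuclei are a description. Outside that rule, Vcam1 stood at 196 CPM in mural and 1024 in reticular nuclei (log2 -2.37), Angpt1 at 95.9 and 459.5 CPM (log2 -2.23) and Csf1 at 44.0 and 258 CPM (log2 -2.49). Against all other nuclei, 2 of the 11 niche genes that passed the minimum were lower and 0 higher.

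**Figure D2:**
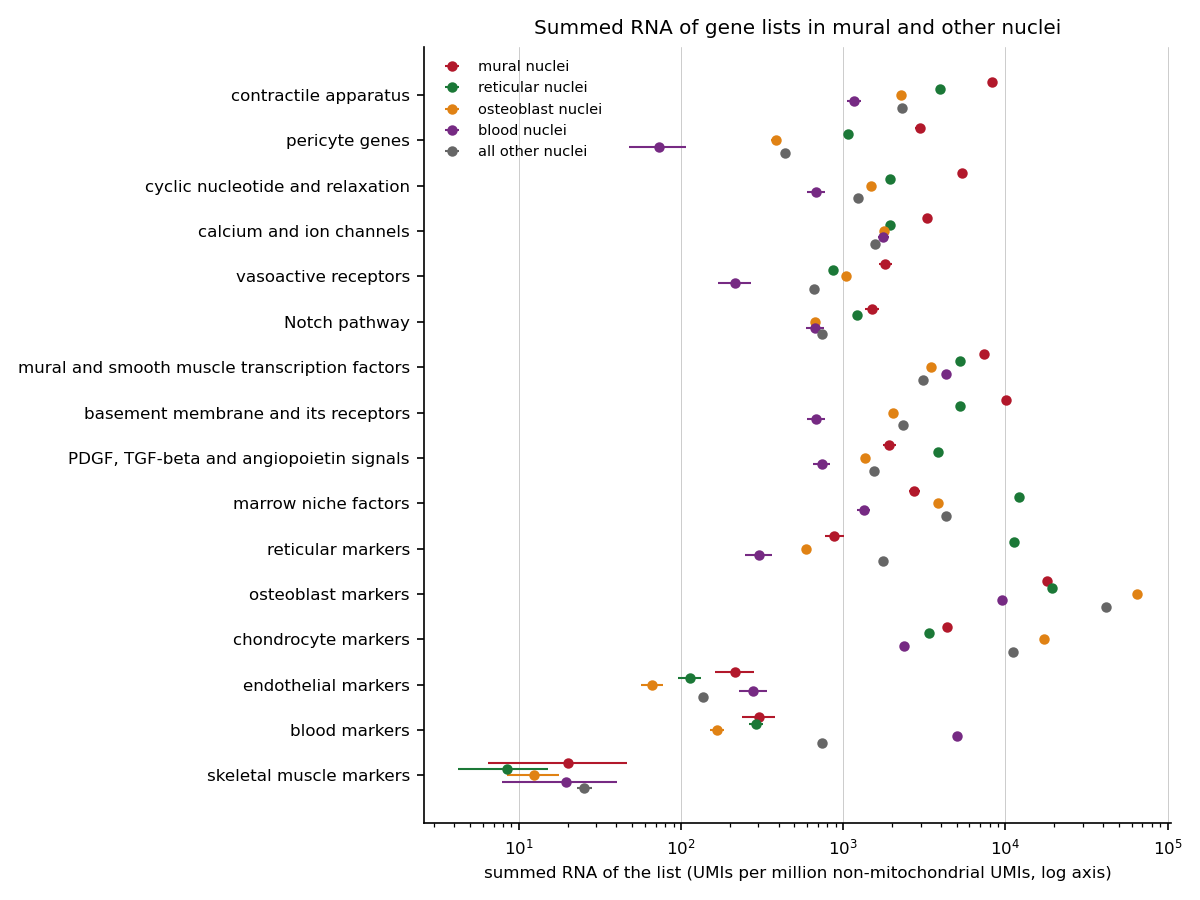
Summed RNA of 16 gene lists (CPM, log axis, bars are exact 95% Poisson intervals) in mural, reticular, osteoblast, blood and all other nuclei. Mural nuclei lie highest of the 5 for the 8 uppermost lists and below reticular nuclei for PDGF, TGF-beta and angiopoietin signals, niche factors and reticular markers.

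Outside the lists, the genes of largest ratio with at least 20 UMIs in mural nuclei included further ion channels and cytoskeletal genes. Kcnk3, a two-pore potassium channel of vascular smooth muscle, had 42 UMIs in 21 nuclei at 168 against 1.42 CPM (log2 6.86). Kcnab1, a potassium channel beta subunit, had 255 UMIs (log2 6.38), the amino acid transporter Slc38a11 had 31 (log2 7.19), and the catenin Ctnna3 had 116 in 34 nuclei (log2 6.42). Sparcl1, a matricellular protein, had 104 UMIs (log2 6.37), Cap2, an actin regulator, 51 (log2 6.23), Sgip1 85 (log2 5.77), Filip1 76 (log2 5.36) and Lgi1 23 (log2 5.23). At the other end, Col22a1, a collagen of tissue junctions, had 1 UMI in mural nuclei at 3.997 against 203 CPM (log2 -5.08), and Bmp6 had 4 UMIs (log2 -4.08). Of 16 genes linked to tissue stem cells, 9 passed the minimum, 3 through mural nuclei alone, and 4 were higher and 1 lower. Thy1 had 24 UMIs in 15 nuclei (log2 4.69), Pparg stood at 252 against 64.1 CPM (log2 1.98), and Fgfr3 had 2 UMIs (log2 -2.39).

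Markers of other cell types were counted in the same nuclei, and their part in the results above was not tested. Osteoblast markers summed to 17929 CPM in mural nuclei, 41929 in all others and 49002 in free RNA, and chondrocyte markers to 4360.4, 11119 and 12626 CPM. Mural nuclei thus held less of both than the other nuclei, and 9 of 12 osteoblast and 6 of 11 chondrocyte markers were lower. Endothelial markers summed to 216 CPM from 54 UMIs, against 137 in all others and 279.7 in blood nuclei. They were found in 18 mural nuclei, 3 nuclei had at least 3 of these UMIs and 1 had 16, and Kdr, Tie1, Cldn5 and Mmrn2 had 0 UMIs. Blood markers summed to 304 CPM, against 743 in all others and 5007 in blood nuclei, with Epor and Ms4a1 among the genes at 0. Skeletal muscle markers had 5 UMIs in all, with 9 of 13 genes at 0, among them Ckm, Acta1 and Myod1. Of the adipocyte markers, Fabp4, a fatty acid carrier also found in endothelium, had 100 UMIs in 38 nuclei (log2 4.85), 30% of them in 1 nucleus, while Plin1, Cidec, Retn, Lep and Pck1 had 0. Periosteal fibroblast markers summed to 536 CPM in mural nuclei, 582.5 in all others and 249 in reticular nuclei. Of these, Aspn had 34 UMIs (log2 2.63 to all others in RNA and 2.34 in accessibility), and Postn had 60 (log2 0.96 in RNA and 1.40 in accessibility, and 2.01 in RNA to reticular nuclei). Cycling genes summed to 643.5 CPM in mural nuclei, 514 in all others, 186 in reticular and 5362 in blood nuclei, and against reticular nuclei Mki67, Top2a and Diaph3 had log2 ratios of 1.73, 1.97 and 2.51. The 161 cycling UMIs came from 28 mural nuclei, of which 10 held at least 3 and 1 held 39. Of the Mki67, Top2a and Diaph3 UMIs, 25.6, 32.6 and 19.05% came from 1 nucleus. The tdTomato transcript was seen in 49 of the 98 mural nuclei at 444 CPM, against 239 in all others, 19.6 in blood nuclei and 55.4 in free RNA.

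Open chromatin gave a second measure from the same nuclei that the rule had not used, beyond its depth minimum. Accessibility of a gene was the sum of counts in peaks over the gene and the 3000 bases upstream, per 1000000 peak counts. Over the 5 selecting genes together it was higher in mural than in all other nuclei by a log2 ratio of 1.54 (1.46 to 1.62). Rgs5 had a ratio of 2.32, Myh11 2.12, Tagln 1.75 and Notch3 1.04, which put 4 of the 5 above 2-fold, and Acta2 0.90. Among all 4430 genes compared in both measures 135 (3.05%) were at least 2-fold higher in accessibility, and among all 21367 genes with enough ATAC counts 1069 (5%). Of the lists, 10 of 17 pericyte genes, 9 of 28 contractile genes, 8 of 31 basement membrane genes, 7 of 22 vasoactive receptor genes and 5 of 13 cyclic nucleotide genes were higher, as were 1 of 16 Notch pathway genes and 0 of 15 niche genes. Endothelial markers were also more open, 4 of 16 of them by at least 2-fold, with a median log2 ratio of 0.40 beside 0.42 for the basement membrane genes, and their part in the list counts was not tested.

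RNA and accessibility moved in the same direction for most genes with large RNA ratios, the selecting genes left out. The 790 genes higher in RNA had a median accessibility ratio of 0.37, and 652 of them (82.5%) lay above 0. The 151 genes at least 8-fold higher in RNA had a median of 1.199, and 88 of them (58.3%) were also 2-fold higher in accessibility. The 387 genes lower in RNA had a median of -0.45 and 73 of them (18.9%) lay above 0, and over all 4425 genes the median was 0.02. The 2 measures come from the same 98 nuclei and share their selection. Sgip1 (2.84), Lgi1 (2.63), Fabp4 (2.42), Pde3a (2.01), Kcnk3 (1.85) and Filip1 (1.84) had large ratios in accessibility too. Kcnab1 (-0.13), Slc38a11 (0.10) and Ctnna3 (0.22), among the genes of largest ratio in RNA, did not over the whole gene. Single peaks in Ctnna3, 27521 and 450476 bases downstream of its start, held 38 and 33 counts in mural nuclei at log2 ratios of 3.75 and 4.07.

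**Figure D3:**
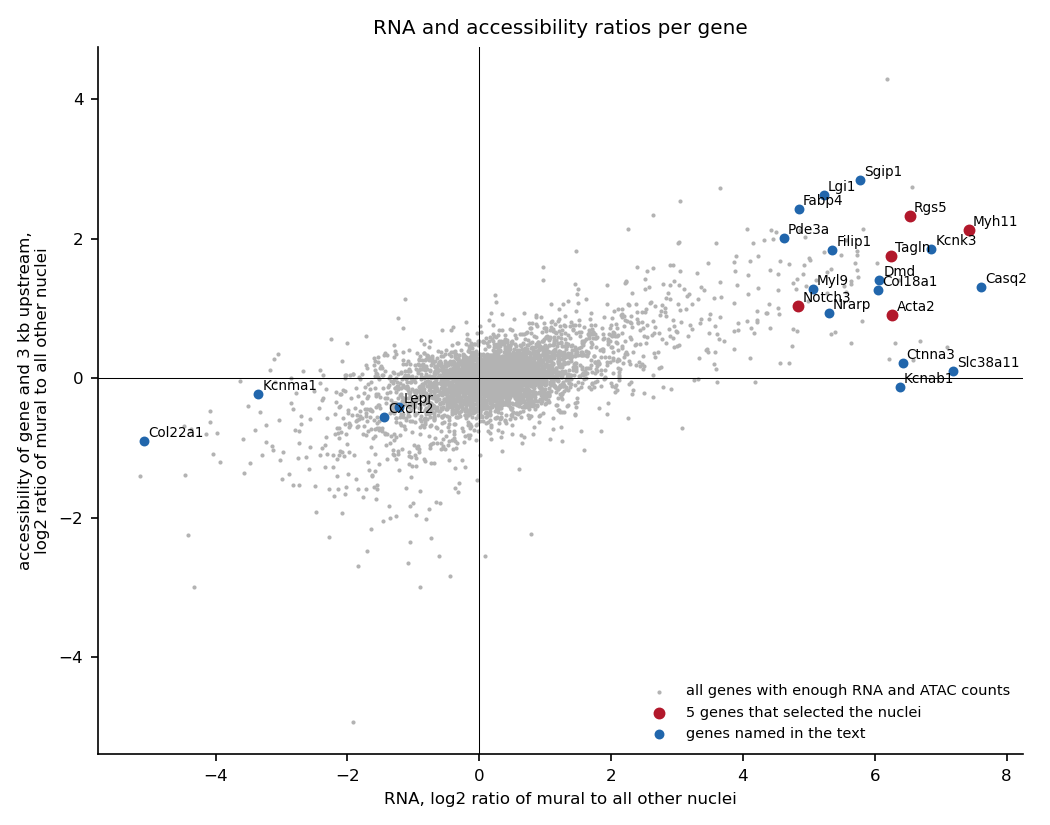
Log2 ratio of mural to all other nuclei in RNA (horizontal) and in accessibility of the gene with 3000 bases upstream (vertical), each point a gene compared in both, with the 5 selecting genes in red and genes of the text in blue. Red points lie at the upper right, while Kcnab1, Slc38a11 and Ctnna3 lie near 0 on the vertical axis.

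Each selecting gene had a peak at its start that was more open in mural than in all other nuclei. The peak at the Rgs5 start (chr1:169655009-169655902, mm10) held 77 counts from 28 mural nuclei, 25.1 per 1000000 peak counts (ATAC CPM) against 2.203 in all other nuclei (log2 3.52). The peak at the Myh11 start (chr16:14290993-14291877) held 72 counts from 29 nuclei, 23.5 against 4.50 ATAC CPM (log2 2.39). The peak at the Acta2 start (chr19:34254824-34255614) held 86 counts from 31 nuclei, 28.0 against 6.58 ATAC CPM (log2 2.10). At Tagln (chr9:45935537-45936322) 63 counts gave 20.5 against 4.09 ATAC CPM (log2 2.34), and at Notch3 (chr17:32166502-32167274) 97 counts gave 31.6 against 11.8 (log2 1.43). Against reticular nuclei the log2 ratios of these 5 peaks were 3.15 for Rgs5, 1.66 for Myh11, 2.10 for Acta2 and 2.22 for Tagln. The Notch3 start, at 31.6 against 19.7 ATAC CPM in reticular nuclei (log2 0.69), lay within 2-fold. Blood nuclei stood at 0.211 to 6.33 ATAC CPM in these 5 peaks. Other peaks near a start had smaller ratios: the one at chr19:34254229-34254679, by Acta2, stood at 1.63 against 2.71 ATAC CPM from 5 counts (log2 -0.60, interval -2.36 to 0.50), and the one 972 bases into Notch3 had a log2 ratio of 0.27 (-0.29 to 0.75).

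Peaks away from the starts had larger ratios still for some genes. In Rgs5, 29886 bases downstream of the start, a peak (chr1:169684964-169685811) held 62 counts from 28 nuclei, 20.2 against 0.986 ATAC CPM (log2 4.36). In Myh11, 37599 bases downstream, a peak held 92 counts from 33 nuclei, 29.98 against 1.995 ATAC CPM (log2 3.92). Upstream of Notch3, peaks 6447 and 12522 bases before the start held 117 and 69 counts, at log2 ratios of 3.26 and 3.32, both larger than that of the Notch3 start. A peak 10244 bases upstream of Acta2 held 33 counts (log2 2.82). The channel genes with few or moderate RNA counts had open peaks as well: 1356 bases upstream of Abcc9, 70 counts from 25 nuclei gave 22.8 against 2.38 ATAC CPM (log2 3.27), and 1529 bases upstream of Kcnj8, which had 4 UMIs, 43 counts gave 14.01 against 2.89 ATAC CPM (log2 2.29).

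**Figure D4:**
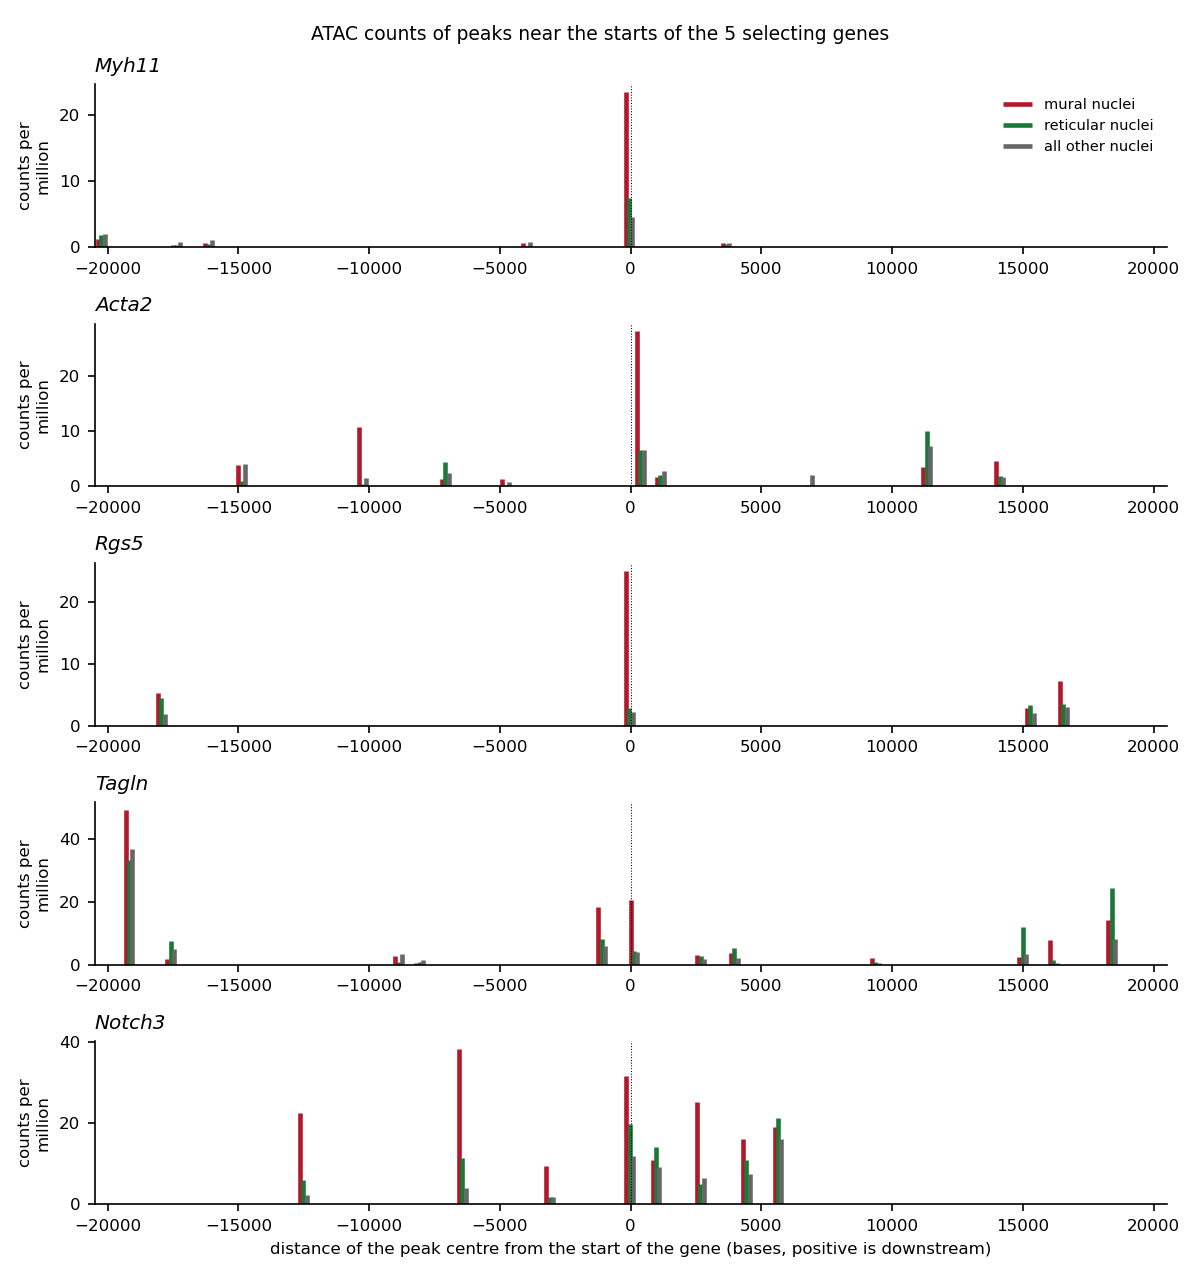
ATAC CPM in peaks near the starts of the 5 selecting genes (horizontal, bases from the start, positive downstream, bars of the 3 classes set side by side) for mural, reticular and all other nuclei. Mural bars are the tallest at the 5 start peaks given above and at the Notch3 peaks 6447 and 12522 bases upstream, while the peak 19185 bases upstream of Tagln is open in all 3 classes.

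The proximal promoters of 3 selecting genes were in the RefSeq promoter table (GRCm38.p6), and they are shown because the start peaks above overlap them. The CArG box, which SRF binds in smooth muscle genes, was searched by its exact consensus CCWWWWWWGG (W is A or T) on both strands. Its matches are in capitals. The 3 windows held no exact match. Near matches, such as CCCTATATGG and CCTTGTTTGG in the Acta2 window, were not counted.

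Acta2 promoter, chr19:34255324-34255623 (-): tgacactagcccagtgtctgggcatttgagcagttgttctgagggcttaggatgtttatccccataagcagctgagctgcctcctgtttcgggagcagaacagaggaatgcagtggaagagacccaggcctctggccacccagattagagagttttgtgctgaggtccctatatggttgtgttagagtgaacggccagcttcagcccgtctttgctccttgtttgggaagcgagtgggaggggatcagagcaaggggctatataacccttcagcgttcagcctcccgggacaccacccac
Rgs5 promoter, chr1:169655251-169655550 (+): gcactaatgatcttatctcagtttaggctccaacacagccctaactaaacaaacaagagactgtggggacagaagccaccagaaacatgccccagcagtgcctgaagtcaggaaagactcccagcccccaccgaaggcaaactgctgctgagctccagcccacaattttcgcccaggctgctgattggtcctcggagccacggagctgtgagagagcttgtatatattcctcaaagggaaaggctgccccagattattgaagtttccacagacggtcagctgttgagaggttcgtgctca
Notch3 promoter, chr17:32166841-32167140 (-): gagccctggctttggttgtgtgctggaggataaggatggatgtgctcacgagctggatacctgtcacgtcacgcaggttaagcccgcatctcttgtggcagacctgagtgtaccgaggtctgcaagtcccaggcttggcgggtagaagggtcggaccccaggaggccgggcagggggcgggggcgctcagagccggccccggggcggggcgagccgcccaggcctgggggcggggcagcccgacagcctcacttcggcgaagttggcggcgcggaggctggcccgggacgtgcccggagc

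The consensus was found in the promoters of 5 of the 25 contractile genes in the table (20%), in 0 of 12 pericyte genes and in 1.81% of all 27025 genes. A match is a description of the letters, not a binding site. Myl9 and Ldb3 are shown as contractile genes with a match, 161 and 35 bases before the start, under a peak that was more open in mural nuclei. The Myl9 peak held 134 counts, 43.7 against 16.4 ATAC CPM (log2 1.42), and the Ldb3 peak 42 counts, 13.7 against 0.552 ATAC CPM (log2 4.64), although Ldb3 RNA had only 2 UMIs. Of the other contractile genes with a match, Myl6 and Vcl had start peaks with log2 ratios of 0.34 and 0.16, and Dmd had no peak over the window.

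Myl9 promoter, chr2:156775214-156775513 (+): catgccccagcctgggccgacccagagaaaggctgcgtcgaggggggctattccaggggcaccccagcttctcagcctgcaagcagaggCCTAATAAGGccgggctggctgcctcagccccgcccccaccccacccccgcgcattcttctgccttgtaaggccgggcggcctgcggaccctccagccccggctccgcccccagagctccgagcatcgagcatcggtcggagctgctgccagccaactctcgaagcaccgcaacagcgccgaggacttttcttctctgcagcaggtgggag
Ldb3 promoter, chr14:34588632-34588931 (-): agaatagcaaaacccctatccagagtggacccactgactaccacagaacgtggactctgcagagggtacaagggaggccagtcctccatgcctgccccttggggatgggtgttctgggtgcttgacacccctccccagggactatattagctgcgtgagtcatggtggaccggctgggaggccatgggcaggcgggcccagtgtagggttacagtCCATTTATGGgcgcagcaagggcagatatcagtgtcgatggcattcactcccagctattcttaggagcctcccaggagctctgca

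Over all peaks with at least 10 counts in mural nuclei or at least 10 expected there, 18037 of 77482 (23.3%) were at least 2-fold higher in mural than in all other nuclei and 14615 (18.9%) lower. The higher peaks include peaks that passed the minimum through mural nuclei alone and could not have come out lower. The number of such peaks was not counted. The peaks of largest ratio with at least 20 counts mostly lay far from gene starts. One 15412 bases upstream of Nrarp (chr2:25164923-25165770) held 148 counts from 48 of the 98 nuclei, 48.2 ATAC CPM against 1.04 in all others and 0.486 in reticular nuclei (log2 5.54). Another inside Nrg1, which codes for a ligand of ErbB receptors, held 76 counts from 29 nuclei, 24.8 against 0.529 ATAC CPM (log2 5.55). Peaks between genes had as their nearest coding starts Nr2f2 at 500710 bases (42 counts, log2 5.59), Nr2f1 at 738674 (41 counts, log2 5.55), Tbx3 at 270115 (50 counts, log2 5.64) and Trib2 at 166871 (34 counts, log2 5.74). Further peaks between genes lay nearest to Gas1 at 165353 bases (38 counts, log2 5.855, the largest ratio) and Nucb2 at 375101 (51 counts, log2 5.64). Peaks inside Sema6d (55 counts, log2 5.75) and Plekha6 (47 counts, log2 5.66) complete the 10 of largest ratio. Nrarp, Nr2f1, Nr2f2 and Tbx3 were also among the genes higher in RNA, while the RNA ratios of the other genes by these peaks are not given here. Which gene a distant peak acts on was not measured.

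The central sequences of 4 of these peaks are shown as those with matches to the RBPJ motif (TGGGAA on either strand), the partner of Notch receptors on DNA. Matches are in capitals. Of the 10 peaks of largest ratio, 5 held the motif within 100 bases of the centre, 1 held an EBF motif, which overlaps the RBPJ match in the Nr2f2 peak, and 0 held a CArG or MEF2 box. Over all 77450 peaks searched, the shares were 21.9% for RBPJ, 1.45% for EBF, 1.14% for CArG and 3.28% for MEF2. With only 10 peaks, no share is read from the former counts.

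Nrarp upstream, chr2:25165247-25165446 (+): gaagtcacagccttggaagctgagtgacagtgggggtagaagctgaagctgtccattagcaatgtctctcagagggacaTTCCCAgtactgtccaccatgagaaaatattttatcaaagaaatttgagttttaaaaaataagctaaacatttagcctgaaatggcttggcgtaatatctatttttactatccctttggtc
nearest to Trib2, chr12:15649952-15650151 (+): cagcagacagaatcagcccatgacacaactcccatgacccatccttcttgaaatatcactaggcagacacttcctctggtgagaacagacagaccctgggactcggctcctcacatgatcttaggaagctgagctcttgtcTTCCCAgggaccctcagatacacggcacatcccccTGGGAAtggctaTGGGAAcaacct
inside Nrg1, chr8:32334562-32334761 (+): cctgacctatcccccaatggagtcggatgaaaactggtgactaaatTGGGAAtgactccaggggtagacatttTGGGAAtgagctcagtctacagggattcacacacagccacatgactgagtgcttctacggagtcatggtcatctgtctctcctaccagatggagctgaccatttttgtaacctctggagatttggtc
nearest to Nr2f2, chr7:70867346-70867545 (+): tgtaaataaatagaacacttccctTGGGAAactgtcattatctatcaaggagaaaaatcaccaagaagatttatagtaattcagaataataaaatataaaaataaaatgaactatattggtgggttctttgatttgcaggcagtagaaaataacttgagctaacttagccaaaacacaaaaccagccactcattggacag

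Motifs were then counted within 100 bases of the centre over all peaks, on both strands. Among 4078 peaks at least 4-fold higher in mural nuclei with at least 20 counts, 35.6% (34.1 to 37.1) held TGGGAA, against 21.9% of all 77450 peaks searched. The 4078 peaks had a median of 33 counts in mural nuclei, against 17 for all. At 4-fold, a peak at that median passed the minimum through mural nuclei alone. The EBF motif was in 4.46% against 1.45%, the CArG box in 2.26% against 1.14% and the MEF2 box in 4.95% against 3.28%. AP-1 (TGANTCA) was in 20.9% against 14.9% and TEAD (GGAATG, which overlaps RBPJ in TGGGAATG) in 17.8% against 12.8%. FOX (TGTTTAC) at 3.63% against 3.15% and SOX (ACAATG) at 8.80% against 8.51% were nearly level. The CTCF motif, at 0.417% against 1.97%, and RUNX (TGTGGT), the motif of factors that drive bone and blood genes, went the other way. For RUNX, 14.8% of the mural peaks held it, 21.97% of all, and 36.5% of the peaks lower in mural nuclei.

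These sets also differed in place and composition. Of the mural peaks 5.17% lay within 1000 bases of a start, against 19.8% of all, and the median GC content was 48.5% against 51%. Without the minimum of 20 counts, RBPJ was in 32.1% of 7168 peaks at least 4-fold higher over all places. Of these, with peaks over 1000 bases from a start only, RBPJ was in 32.4% of 6872 and in 23.8% of all 62127. EBF was in 3.89% against 1.59%, and RUNX in 16.3% against 25.1%, with 37.7% in lower peaks. The order of the shares for RBPJ, EBF and RUNX was thus the same away from starts.

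The 98 nuclei were not alike. Split at 50% of their selecting UMIs, 22 nuclei leaned to Myh11, Acta2 and Tagln (contractile-leaning, 52702 UMIs) and 76 to Rgs5 and Notch3 (197506 UMIs). The contractile-leaning nuclei had a median mitochondrial share of 27.5% against 16.2% in the others, and median UMI counts of 2018 and 1684. Endothelial markers stood at 399 CPM from 21 UMIs against 167 CPM from 33, and cycling genes at 114 CPM from 6 UMIs against 785 CPM from 155. The part of these differences in the comparisons below was not tested. For the contractile and pericyte lists and some genes, RNA values among the 54 nuclei with at most 20% mitochondrial UMIs are given as well. Of these, 6 were contractile-leaning and 48 were not.

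Contractile genes other than the selecting ones followed the split. The list stood at 16318 CPM in the contractile-leaning nuclei and 6137 in the others (log2 1.41, interval 1.28 to 1.54), and by 1.93 among the nuclei with at most 20% mitochondrial UMIs. Calcium and channel genes were higher too, at 5332 against 2769.5 CPM (log2 0.95), as were vasoactive receptor genes (log2 0.72, interval 0.42 to 1.01), while basement membrane genes were lower (log2 -0.34, interval -0.49 to -0.19). The tdTomato transcript stood at 778 against 354 CPM (log2 1.14, interval 0.54 to 1.71). The pericyte list was lower, at 2258 against 3165 CPM (log2 -0.48), but within this limit the ratio, with no counts added, was 0.049 (log2 scale). The transcription factor, Notch and cyclic nucleotide lists differed by log2 ratios of 0.02, 0.07 and 0.05, with intervals of -0.14 to 0.19, -0.31 to 0.42 and -0.14 to 0.24.

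The single genes below were named after their values were seen, as extremes, so ratios larger than those of the lists follow from that choice. Of 1988 genes compared in the split, 247 were higher in the contractile-leaning nuclei and 288 higher in the others. Sorbs2, an adaptor of the actin cytoskeleton, had 65 UMIs in 11 of the 22 contractile-leaning nuclei and 10 in 7 of the 76 others, 1233 against 50.6 CPM (log2 4.55). This gene had differed little between mural and all other nuclei (log2 0.64). Dmd had 109 UMIs against 51 (log2 2.99), Ctnna3 81 against 35 (log2 3.10), Sparcl1 77 against 27 (log2 3.40), Myl9 50 against 24 (log2 2.95), Lama5 37 against 16 (log2 3.09) and Ryr2 17 against 4 (log2 3.87). On the Rgs5 and Notch3 side, Abcc9 had 1 UMI in the 22 nuclei and 121 in 40 of the 76, 19.0 against 613 CPM (log2 -4.43, interval -10.33 to -2.51). Col5a3, a collagen V chain, had 1 UMI against 162 in 50 nuclei (log2 -4.85). The adhesion receptor Adgrl3 had 0 against 54 UMIs, the mechanosensitive channel Piezo2 0 against 52 and the growth factor Igf1 0 against 48. At 3 UMIs over the 22 nuclei as the floor, and with the counts of the 76 others taken as exact, these were 4.80-fold, 4.63-fold and 4.27-fold lower there. Their intervals, which cover counting error on both sides, ended at smaller differences, log2 ratios of -1.92, -1.86 and -1.74. Within the limit of 20%, Abcc9 had 0 UMIs in 6 nuclei against 87 in 48, Col5a3 0 against 112, Sorbs2 45 against 5 and Myl9 33 against 18.

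Accessibility, which had no part in the split, differed for some of these genes. Abcc9 held 18 peak counts in the contractile-leaning nuclei and 316 in the others, 29.7 against 128 ATAC CPM (log2 -2.08, interval -2.89 to -1.43). Cysltr2, a leukotriene receptor gene with 0 against 26 UMIs, had a log2 ratio of -1.92, Enox1 of -1.68, Igf1 of -1.48 and Adgrl3 of -1.33. Others did not follow their RNA: Sparcl1 had a ratio of 0.00, Dmd of -0.64 (-1.76 to 0.23), and Slc12a2, with 0 against 48 UMIs, of 0.68 (0.20 to 1.13). Acta2 (log2 1.16, interval 0.56 to 1.72) and Tagln (log2 1.03, interval 0.48 to 1.54) were more open in the contractile-leaning nuclei. Myh11 was not: its accessibility stood at 75.8 against 143 ATAC CPM (log2 -0.90, interval -1.39 to -0.47), opposite to its RNA. This came with the peaks inside the gene, since 32315 bases downstream of the start 16.5 against 43.5 ATAC CPM were counted (log2 -1.34), while the start itself stood at 31.3 against 21.5 ATAC CPM (log2 0.56, interval -0.30 to 1.32). Sums of RNA and of peak counts rest on different nuclei, however. The contractile-leaning nuclei with most Myh11 UMIs (30, 28 and 27) held 15771, 27974 and 2644 peak counts. Those with most peak counts (89954, 77519 and 56396) held 5, 3 and 4 Myh11 UMIs. The part of this in the Myh11 values was not tested. Rgs5 and Notch3 accessibility differed by -0.08 and -0.06, with intervals of -0.61 to 0.39 and -0.44 to 0.28. Within Notch3, the peak 2658 bases downstream of the start held 4 counts against 73, 6.59 against 29.7 ATAC CPM (log2 -2.01, interval -4.08 to -0.75), while the start peak stood at 34.6 against 30.9 ATAC CPM.

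**Figure D5:**
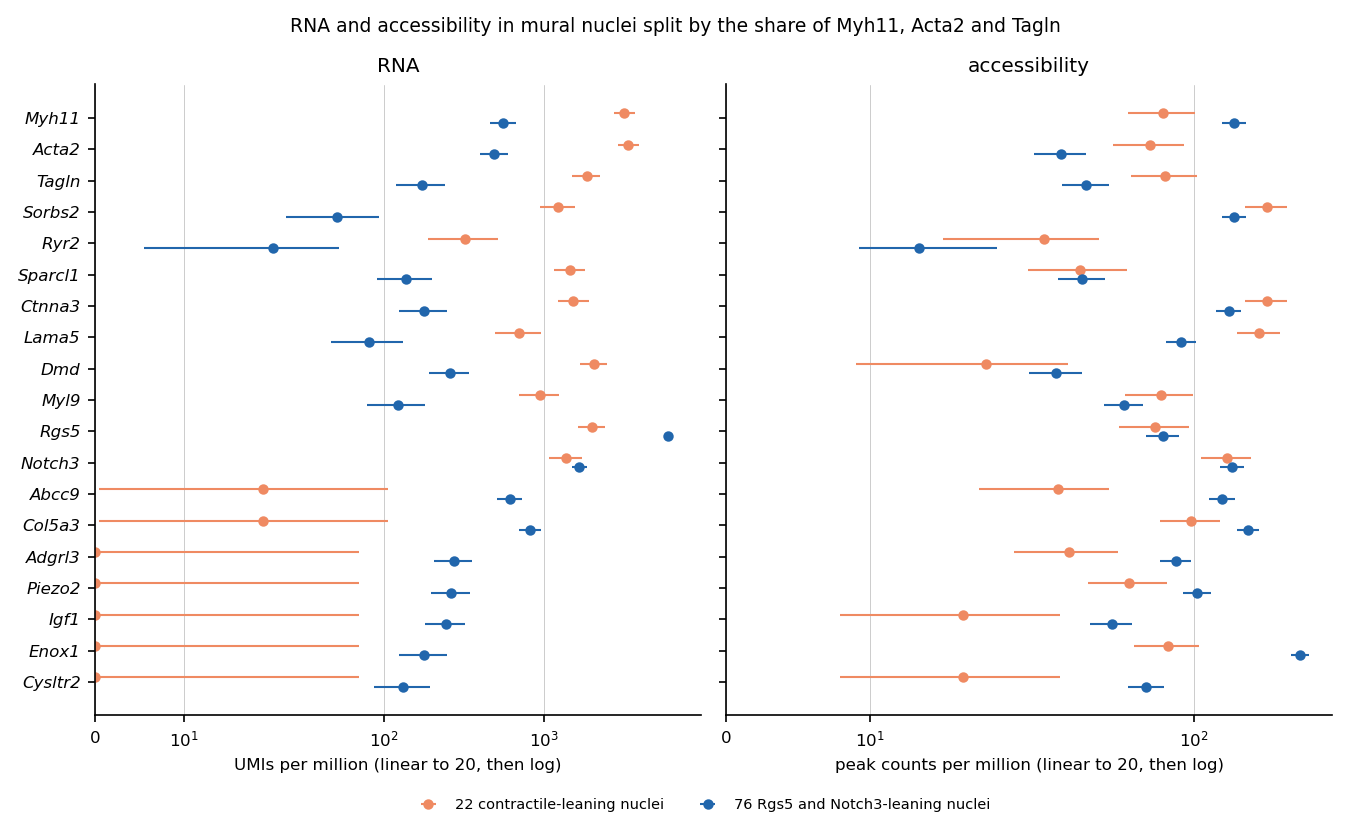
RNA (left, CPM) and accessibility (right, ATAC CPM), both axes linear to 20 and logarithmic beyond, in the 22 contractile-leaning and 76 Rgs5 and Notch3-leaning nuclei, bars exact 95% Poisson intervals. The point pairs part widely in RNA for Sorbs2, Abcc9 and Col5a3, and in accessibility Abcc9 and Enox1 part while Rgs5 and Notch3 overlap and Myh11 is turned around.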

How the data were processed

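The authors aligned and counted both libraries with Cell Ranger ARC (cellranger-arc 2.0.0) on mm10, and deposited raw counts for 728634 barcodes: UMIs of 32293 genes (35460453 in all) and ATAC counts in 203545 peaks (191398837 in all). The separate peak list was not used.

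Nuclei were chosen by the stated rule. Counts were summed over nuclei and scaled to 1000000 non-mitochondrial UMIs (CPM) or peak counts (ATAC CPM) with exact 95% Poisson intervals, log2 ratios with 0.5 counts added, and list ratios with exact binomial intervals. With 1 library per assay no p-value was computed. Where a count was 0, 3 counts served as the floor. Doublets were kept in, and Scrublet scores, as implemented in scanpy, gave an alternative. Gm42418 held 30.8% of mural UMIs and 61.0% of free RNA. The members and the gene lists were chosen with earlier results of these data known. Genes named were the 5 selecting ones, up to 4 per list by ratio to either class, list members at or near 0, the extremes outside the lists and the peaks of largest ratio. Others were added after their values were seen, for their roles. Gene models were GENCODE vM21, whose starts lay within 1 kb for 96.4% of genes. Scripts were tested on simulated data and ran in Python 3.11.15 with numpy 2.4.6, scipy 1.17.1, pandas 2.3.3, scanpy 1.11.5 and matplotlib 3.10.9.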

Additional observations from a re-analysis of the deposited data

How the results depend on the processing

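Of 85 values under alternatives, 60 stayed within the limits set for them, 24 moved and 1 reversed. The number of mural nuclei was 59 with at least 3 of the 5 genes, 54 with at most 20% and 22 with at most 10% mitochondrial UMIs. Genes higher than in all other nuclei fell from 801 to 346 at the 10% limit and 456 at a minimum of 20 counts, genes lower from 394 to 123 and 207, genes higher than in reticular nuclei from 603 to 267 and 318, and higher peaks from 18037 to 3452 and 9345 (11978 at the 20% limit), with fewer genes or peaks compared in each. The contractile list ratio of 1.84 was 2.02 at a 0.5% share, 2.08 with 3 genes, 1.95 at the 10% limit, 1.94 without the highest Scrublet scores (3 of the 98 mural nuclei) and 1.59 as a mean over nuclei. The pericyte list ratio of 2.76 was 2.58 with 3 genes, 2.89 without those scores and 2.63 as a mean over nuclei. The accessibility ratio of 1.54 was 1.35 and 1.38 at the 20 and 10% limits and 1.75 as a mean over nuclei. Between the contractile-leaning and other mural nuclei, an alternative chosen after seeing the data, at most 20% mitochondrial UMIs, moved the contractile ratio from 1.41 to 1.93 and reversed the pericyte ratio from -0.49 (-0.48 with 0.5 counts added) to 0.049, and the cause was not tested. At this depth a gene with no UMI in mural nuclei could stand at up to 12.0 CPM, and 1 library gives no spread between animals.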
